A study of Homo sapiens with 6 samples.

Results

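A set of 10 genes that report the output of the ERK pathway was followed in BT-549, a human cell line from a triple negative breast tumour, kept in adipocyte-conditioned medium (ACM) or unconditioned medium (UCM). They are the MAP kinase phosphatase genes DUSP1, DUSP4, DUSP5 and DUSP6, the Sprouty and SPRED genes SPRY2, SPRY4, SPRED1 and SPRED2, and the ETS factor genes ETV4 and ETV5. These 10 of the 63140 genes listed were chosen by name as known ERK feedback and output genes, with earlier results of these data known. They were matched by symbol to their Ensembl identifiers, and all 10 had enough counts to be tested. All 10 were higher in every ACM library than in every UCM library, as were 13.9% of all genes tested. Mean levels were between 1.30 and 4.21 times those in UCM. By edgeR's test 8 members were higher (adjusted p ≤ 0.05), beside 3.35% of all genes tested. With single libraries left out, the members passing numbered between 2 and 9.

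The 6 libraries are polyA RNA from 3 ACM cultures and 3 UCM cultures of wild-type (WT) cells after 24 h in the medium. ACM was the supernatant of differentiating OP9 mouse cells kept in an insulin and oleate medium with little serum, while the routine medium of BT-549 cells is RPMI-1640 with serum and insulin. The labels give 50% ACM and the supplement of the paper gives undiluted ACM for these cultures, and the formula of UCM is not given in the sources used here. Serum, insulin, oleate and base medium therefore cannot be told apart from what the adipocytes secreted. BT-549 is a single cell line, and nothing in the labels says that the replicates came from separate passages or days, so the p-values measure the spread between these cultures.

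ERK is the last kinase of the RAS, RAF and MEK cascade, through which growth factors and cytokines drive proliferation, migration and survival, and the cascade is often hyperactive in breast cancer. Active ERK induces transcription factors such as ETV4 and ETV5 and, in the same hours, the genes of its own inhibitors. The DUSP phosphatases remove phosphate from ERK and related kinases, and the Sprouty and SPRED proteins restrain the pathway at or above RAF. Because their mRNAs are short-lived and depend on the pathway, levels of these genes are widely used as a readout of ERK output, although phosphorylation of ERK itself was not measured in these libraries and DUSP1 is also induced by stress kinases, cAMP and glucocorticoids.

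Promoters of members are shown here because the members moved together in the counts reported next. RefSeq promoter windows (GRCh38.p14, 250 bases before to 50 bases after the start) were at hand for 6 of the 10 members, DUSP1, DUSP6, SPRY2, SPRY4, SPRED1 and SPRED2, with 9 windows in all since SPRY2 and SPRED2 have more than 1 start. DUSP4, DUSP5, ETV4 and ETV5 had no window to search. The windows of 3 members are printed without their transcribed bases, 5′ to 3′ on the strand of the gene, with matches to the motifs searched in capitals. They are those of DUSP1, SPRY2 and DUSP6, all on the minus strand. In that of DUSP1 (chr5:172771196-172771445) capitals mark a CRE. In that of SPRY2 (chr13:80341127-80341376) they mark the ETS site CCGGAA. That of DUSP6 (chr12:89352502-89352751), the member with the largest fold change, held no match to the motifs searched.
DUSP1: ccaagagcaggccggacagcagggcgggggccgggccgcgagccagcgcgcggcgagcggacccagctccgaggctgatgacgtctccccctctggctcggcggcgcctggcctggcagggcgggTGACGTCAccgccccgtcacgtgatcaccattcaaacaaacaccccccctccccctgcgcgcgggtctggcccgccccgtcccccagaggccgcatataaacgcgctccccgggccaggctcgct
SPRY2: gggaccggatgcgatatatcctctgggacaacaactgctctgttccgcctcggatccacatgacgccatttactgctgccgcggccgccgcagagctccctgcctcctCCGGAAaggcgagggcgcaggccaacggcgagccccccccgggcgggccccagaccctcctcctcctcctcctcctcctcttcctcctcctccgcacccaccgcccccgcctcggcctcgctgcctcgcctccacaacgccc
DUSP6: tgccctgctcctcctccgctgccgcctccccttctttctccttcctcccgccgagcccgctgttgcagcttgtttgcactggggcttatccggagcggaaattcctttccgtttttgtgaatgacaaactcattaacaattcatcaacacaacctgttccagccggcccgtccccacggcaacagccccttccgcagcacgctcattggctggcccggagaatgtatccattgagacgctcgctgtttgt
Both strands were searched for the ETS site CCGGAA, the AP-1 site TGANTCA, the cAMP response element (CRE) TGACGTCA and the CArG box of serum response factor. None of their matches overlapped another in the members' windows. The shorter ETS core GGAA was not searched by itself. The CRE of DUSP1 lay from 125 to 118 bases before the start. It was in 1 of the 9 windows of members, and 1.84% of 34943 promoter windows of the same length hold a CRE. The ETS site of SPRY2 lay from 142 to 137 bases before the start. Of the 9 windows of members, 1 held this site, against 17.2% of all windows. 1 of the SPRED2 windows held AP-1 matches, against 7.72% of all windows, and no CArG box was found in the 9 windows, against 1.30% of all. A match describes these letters only and shows neither binding nor a cause of the change in level.

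Library totals were between 17135288 and 21053257 expected counts, RSEM's estimated number of reads per gene. Levels are given in CPM, read counts scaled to a common library size after TMM normalization, and in TPM, which also divides by transcript length. Of the genes listed, 14451 passed edgeR's filter on low counts and were tested. The labelled cell type is epithelial, but the summed level of EPCAM, CDH1, KRT8, KRT18 and KRT19 was between 1.30 and 2.80 CPM, whereas VIM, CDH2 and FN1 together held between 4070 and 4870 CPM. ESR1 and PGR had no count in any library, and ERBB2 was at 61.6 to 75.0 CPM. Among 5 adipocyte markers, ADIPOQ, LEP and CIDEC were at 0 in every library. The summed level of all 5, PLIN1 and FABP4 included, was at most 0.143 CPM, and PTPRC, a leukocyte marker, was at most 0.323 CPM. Replicate 1 of both media stood apart in the immediate early genes FOS and EGR1, with FOS at 0.758 CPM in UCM replicate 1 and 1.57 CPM in ACM replicate 1 against 5.27 to 9.73 CPM in the other libraries. ACM replicate 2 was the highest ACM library for all 10 members, and UCM replicate 1 was the highest UCM library for 8 of them, so results are also given without these libraries.

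The MAP kinase phosphatases are the direct brakes on ERK (gene positions here and for the other members are those of GENCODE 44 on GRCh38). DUSP6 (ENSG00000139318, chr12:89347235-89352501, minus strand, 3 exons in the canonical transcript), a cytoplasmic phosphatase specific for ERK, was at 12.8, 32.1 and 13.0 CPM in ACM replicates 1, 2 and 3 and at 5.92, 3.55 and 4.31 CPM in UCM. All ACM values lay above all UCM values, with ACM replicate 2 far above the others. ACM averaged 19.3 ± 11.1 CPM against 4.59 ± 1.21 CPM for UCM (SD, n = 3 in both), a log2 FC of 2.06 (SE 0.44), the largest of the members. DUSP6 did not pass edgeR's quasi-likelihood test over all genes (adjusted p = 0.0532), and the adjusted p ran from 0.00106 to 0.204 over 15 other settings of the fit (another tool, scaling or filter, the TPM values, a replicate block, or libraries left out). Leaving out ACM replicate 2 lowered the log2 FC of DUSP6 to 1.49 with less spread (adjusted p = 0.0121 from edgeR), and leaving out UCM replicate 2 or 3 gave an adjusted p = 0.204. An antisense lncRNA that overlaps DUSP6, ENSG00000274021, held 24.4, 36.3 and 27.5 expected counts in the ACM libraries against 6.19, 11.9 and 9.64 in the UCM libraries, or 8.62% of the DUSP6 total. Whether strand was used in counting is not given in the sources used here, so reads of this pair may not be told apart.

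DUSP4 (ENSG00000120875, chr8:29333064-29350684, minus strand), a nuclear phosphatase of ERK and other MAP kinases, was at 27.4, 46.9 and 28.5 CPM in ACM and at 17.6, 12.3 and 12.7 CPM in UCM. The lowest ACM culture was above the highest UCM culture. DUSP4 rose with a log2 FC of 1.26 (SE 0.25; edgeR adjusted p = 0.0354), or 0.97 when ACM replicate 2 was left out. DUSP5 (ENSG00000138166, chr10:110497907-110511533, plus strand), a nuclear phosphatase specific for ERK, was at 10.6, 12.4 and 10.8 CPM in ACM and at 8.43, 5.91 and 5.36 CPM in UCM. The ACM cultures lay close together, 11.3 ± 0.995 CPM (SD, n = 3), and UCM replicate 1 came nearest to them. The log2 FC was 0.77 (SE 0.18, adjusted p = 0.0391 from edgeR), and DUSP5 kept its call in 6 of 14 other settings (leaving aside the fit without either replicate 1, which was added after seeing the data).

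DUSP1 (ENSG00000120129, chr5:172768096-172771195, minus strand, 4 exons), a nuclear phosphatase that acts mainly on p38 and JNK and also on ERK, was at 66.6, 82.2 and 63.8 CPM in ACM and at 44.9, 47.8 and 54.5 CPM in UCM. The groups did not overlap, and UCM replicate 1 was here the lowest UCM library rather than the highest. The log2 FC was 0.53 (SE 0.11, adjusted p = 0.0258 from edgeR), which is under the fold threshold of 0.58 that the study used. Of the phosphatases, 3 of 4 thus passed by adjusted p and all 4 by unadjusted p (≤ 0.05), beside 3.35% and 11.9% of all genes tested that were higher. The CPM ratio of DUSP6 to DUSP1 within a library was 0.193, 0.390 and 0.205 for ACM, against 0.132, 0.0742 and 0.0792 for UCM. The ratio was higher in every ACM library, and the exact two-sided permutation test gave p = 0.1, the smallest that 3 against 3 libraries allow (Benjamini-Hochberg adjusted p = 0.2 over 6 such ratios, chosen after the values were seen). DUSP4 to DUSP1 was also separate, at 0.411, 0.570 and 0.447 against 0.393, 0.256 and 0.233 (exact permutation test, p = 0.1, adjusted p = 0.2). DUSP5 to DUSP1 overlapped, at 0.158, 0.151 and 0.17 for ACM against 0.188, 0.124 and 0.0985 for UCM (exact permutation test, p = 0.4, adjusted p = 0.4).

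**Figure D1:**
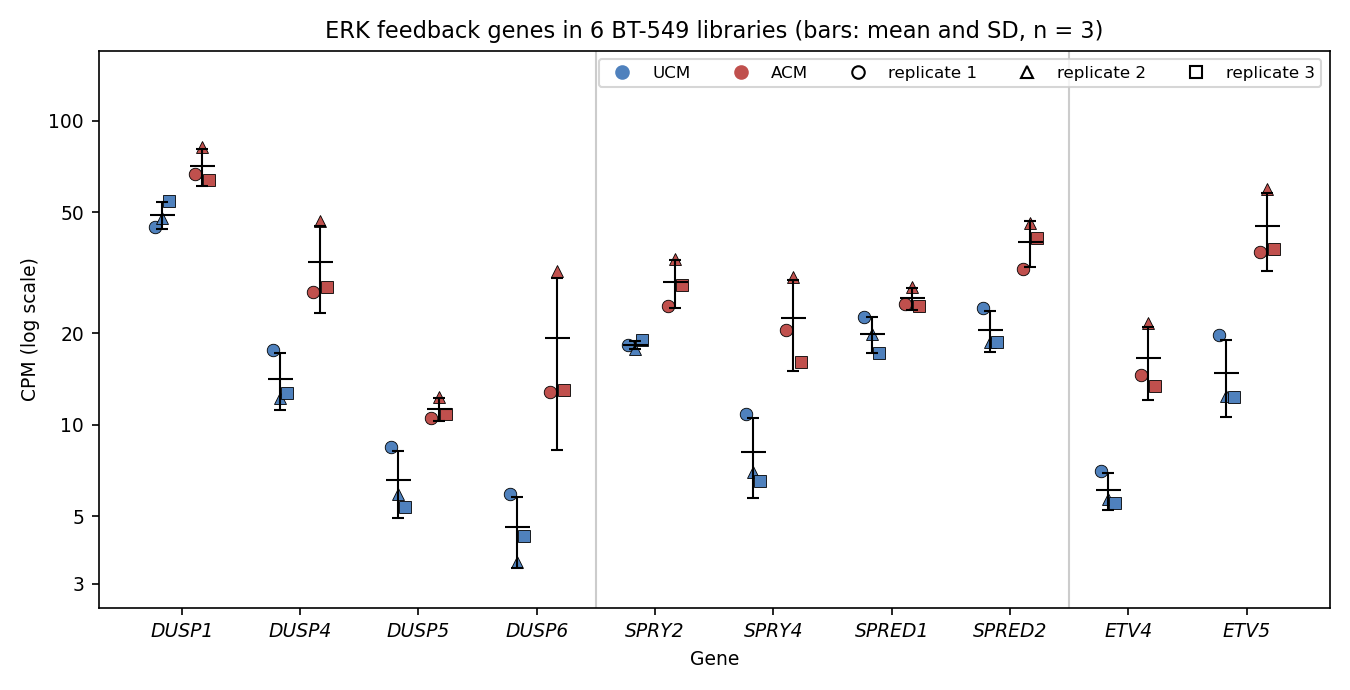
CPM of the 10 members on a log axis in the 3 UCM libraries (blue) and 3 ACM libraries (red), with 1 symbol per replicate number and bars for the mean and SD. For every gene the 3 ACM points sit above the 3 UCM points, the triangle of ACM replicate 2 is the highest of each red group, and the smallest gap is that of SPRED1, 24.7 CPM in the lowest ACM and 22.7 CPM in the highest UCM library.

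Sprouty and SPRED proteins act further up the cascade. SPRY4 (ENSG00000187678, chr5:142310427-142326455, minus strand), an inhibitor of receptor signalling to RAS and RAF, was at 20.6, 30.7 and 16.1 CPM in ACM and at 10.9, 6.99 and 6.53 CPM in UCM. Every ACM culture exceeded every UCM culture, and replicates varied in both media. Its log2 FC was 1.46 (SE 0.29, adjusted p = 0.0351 from edgeR). SPRY2 (ENSG00000136158, chr13:80335976-80341126, minus strand, 2 exons), which also modulates receptor turnover, was at 24.6, 35.2 and 28.8 CPM in ACM against a narrow 18.3, 17.8 and 18.9 CPM in UCM. The log2 FC of SPRY2 was 0.69 (SE 0.13, adjusted p = 0.0157 from edgeR).

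SPRED2 (ENSG00000198369, chr2:65310851-65432637, minus strand), which brings the RAS inhibitor neurofibromin to the membrane, was at 32.6, 46.2 and 41.1 CPM in ACM and at 24.2, 18.7 and 18.7 CPM in UCM. Both ACM replicates 2 and 3 were well above the UCM range, and ACM replicate 1 was nearest to it. The log2 FC was 0.96 (SE 0.15, adjusted p = 0.00915 from edgeR), and SPRED2 passed in 14 of 14 other settings. SPRED1 (ENSG00000166068, chr15:38252836-38357249, plus strand), its paralog with the same role, was at 25.0, 28.5 and 24.7 CPM in ACM and at 22.7, 19.9 and 17.3 CPM in UCM. The groups were separate by a small margin, and the log2 FC of 0.38 (SE 0.12) had an unadjusted p = 0.00879 and an adjusted p = 0.0896 from edgeR. The ratio of SPRED2 to SPRED1 was 1.31, 1.62 and 1.67 for ACM, against 1.07, 0.938 and 1.08 for UCM, higher in each ACM library (exact two-sided permutation test, p = 0.1, adjusted p = 0.2). For SPRY4 to SPRY2 the same ratio overlapped between the media (exact permutation test, p = 0.2, adjusted p = 0.3).

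ETV4 and ETV5 belong to the PEA3 group of ETS factors, which carry ERK signals to genes of migration and invasion. ETV5 (ENSG00000244405, chr3:186046314-186110318, minus strand, 13 exons) was at 37.2, 59.8 and 37.9 CPM in ACM and at 19.7, 12.4 and 12.4 CPM in UCM. The groups did not overlap, and the log2 FC was 1.59 (SE 0.26, adjusted p = 0.0236 from edgeR). ETV5 passed in 11 of 14 other settings, and its call was lost without UCM replicate 2 or 3 (edgeR adjusted p = 0.114 and 0.106). ETV4 (ENSG00000175832, chr17:43527844-43579620, minus strand, 13 exons) was at 14.5, 21.6 and 13.4 CPM in ACM and at 7.06, 5.70 and 5.54 CPM in UCM. With a log2 FC of 1.43 (SE 0.20), ETV4 had the lowest adjusted p-value of the members (adjusted p = 0.00497 from edgeR), and it passed in 14 of 14 other settings. ETV4 overlaps DHX8 on the opposite strand, and the counts of DHX8 overlapped between the media, with 943, 691 and 876 counts in the ACM libraries against 971, 812 and 774 in the UCM libraries. The ratio of ETV5 to ETV4 ranged from 2.56 to 2.83 in ACM and from 2.18 to 2.79 in UCM and overlapped (exact permutation test, p = 0.3, adjusted p = 0.36).

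Over the 10 members, 8 were higher and 0 lower by adjusted p, beside 3.35% of all genes tested that were higher and 2.21% that were lower at this threshold. By unadjusted p (≤ 0.05) all 10 were higher and 0 lower, against 11.9% higher and 11.5% lower among all genes tested. DESeq2 called 9 members higher and 0 lower, beside 726 of 25484 genes higher (2.85%) and 420 lower. These 25484 are all genes with a DESeq2 p-value, a larger set than the 14451 tested by edgeR, so the 2 shares are not directly comparable. Groups did not overlap for 10 of 10 members with ACM above UCM, which held for 13.9% of all genes tested. The thresholds of the study (unadjusted p ≤ 0.05 with a log2 change of 0.58 or more) were also applied to the edgeR fit. By them 8 members were higher and 0 were lower, beside 4.12% and 1.71% of all genes tested, and 7 members passed under both rules. Whether these members are on the authors' own list of changed genes was not checked. The median log2 FC of the members was 1.11, while that of all genes tested was -0.01. In bulk RNA, a higher level per cell and a larger share of cells with high levels cannot be told apart.

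The number of calls moved with single libraries, while the direction did not. Without UCM replicate 2 only ETV4 and SPRED2 passed (2 of 10, beside 0.846% of all genes), and without UCM replicate 3 DUSP1, ETV4, SPRED2 and SPRY2 passed (4 of 10, beside 1.06%). Without ACM replicate 1, DUSP5 and SPRY4 lost their calls and DUSP6 gained one (7 of 10, beside 2.83%), and without ACM replicate 3 DUSP5 lost its call and DUSP6 gained one (8 of 10, beside 2.17%). Without ACM replicate 2, DUSP1, DUSP5 and SPRY2 lost their calls and DUSP6 gained one (6 of 10, beside 1.34%), and the median log2 FC of the members was 0.91. Without UCM replicate 1, SPRED1 also passed (9 of 10, beside 5.03%). Without either replicate 1 library, SPRED1 passed and SPRY4 did not (8 of 10, beside 7.07%), and the median was 1.42. In all 15 settings each of the 10 log2 FC values was above 0.

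**Figure D2:**
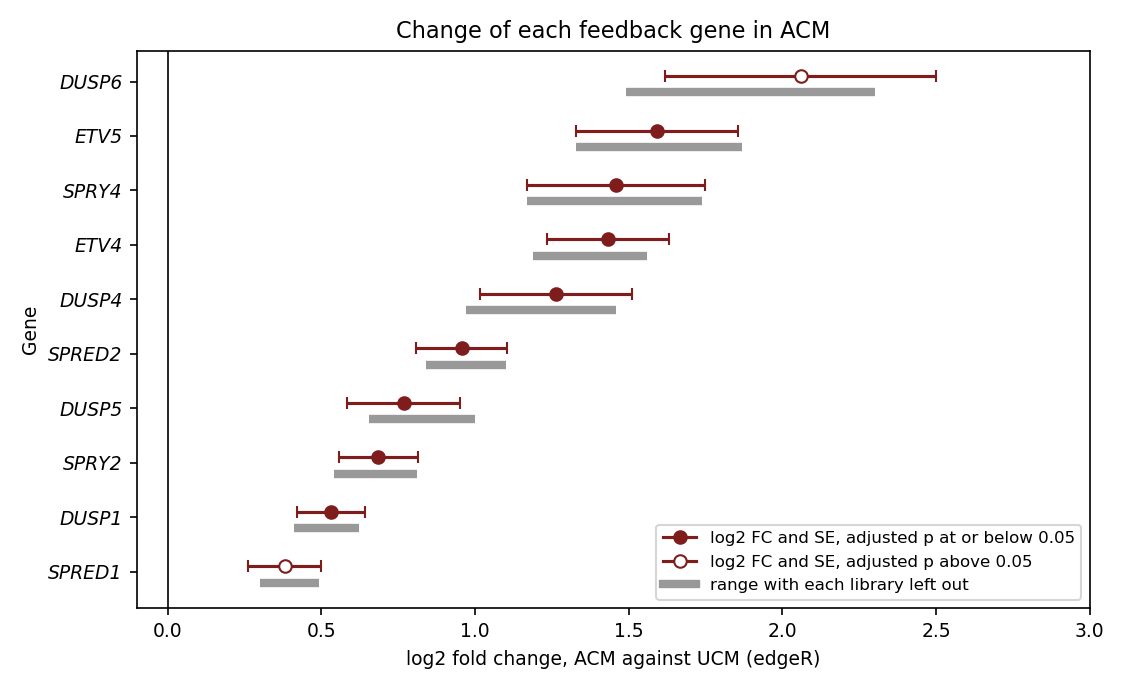
Log2 fold change of each member in ACM against UCM from edgeR, with the SE as bars, filled where adjusted p ≤ 0.05, and the range with each library left out in turn as grey bars. No range reaches 0, DUSP6 has the largest value and the widest bars (2.06, SE 0.44), and SPRED1 the smallest value (0.38, SE 0.12).

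The members shared their highest ACM library, and all but DUSP1 and SPRY2 shared their highest UCM library. Relative to the mean of UCM, the 10 members had a median log2 value of 0.81, 1.45 and 1.00 in the ACM libraries, in order of replicate number, against 0.27, -0.14 and -0.15 in the UCM libraries. ACM replicate 2 was thus high for the whole group, and UCM replicate 1 was closest to ACM. Over the 6 libraries the Pearson correlation with DUSP6 in log2 CPM was between 0.911 (SPRED1) and 0.996 (DUSP4) for the other 9 members, values that contain the difference between the media and are given as a description. The genes of at least 10 CPM most like DUSP6 by this measure were SLC22A23 (0.998), CITED4, IER3, ZFP36L1 and HSPA13 (each 0.996), among 279 of 9671 genes that reached 0.95.

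**Figure D3:**
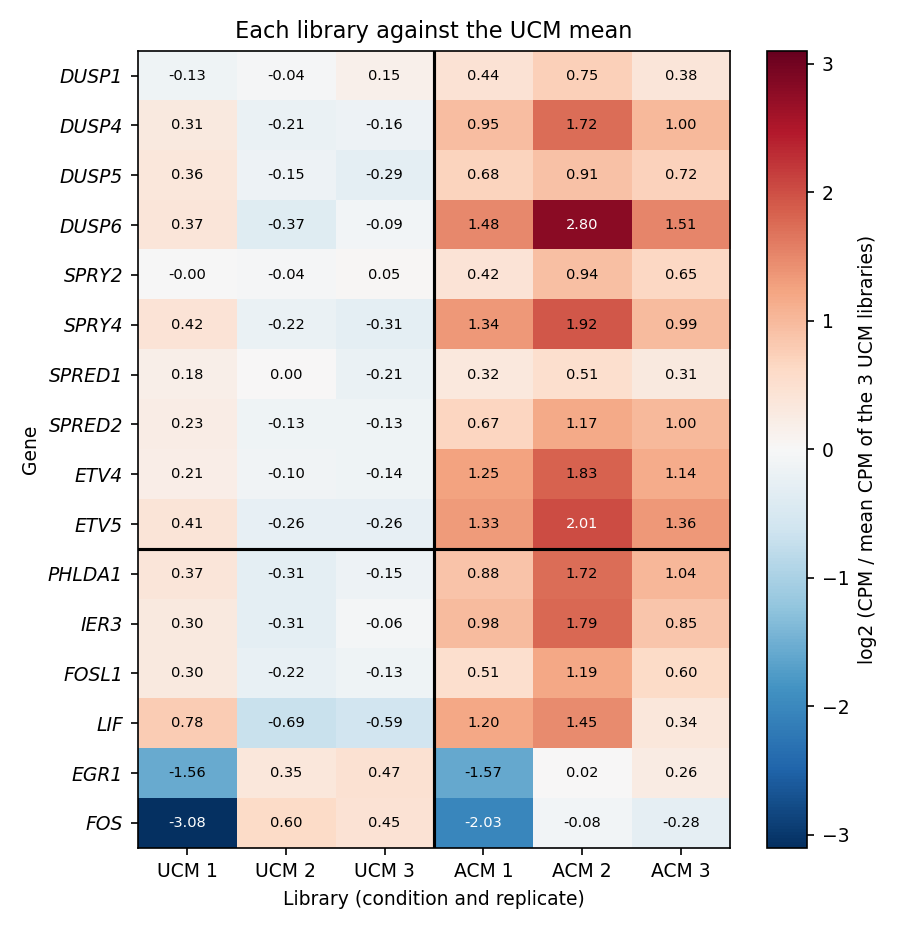
Log2 of the CPM in each library over the mean of the 3 UCM libraries, printed in each cell, for the 10 members (above the line) and 6 other ERK output genes (below it), which were picked for this map after their values were seen. ACM replicate 2 is the darkest red column for the members, from 0.51 for SPRED1 to 2.80 for DUSP6, while EGR1 and FOS are lowest in replicate 1 of both media (FOS at -3.08 in UCM and -2.03 in ACM).

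Levels between genes were compared in TPM. In UCM the order was DUSP1 (40.5 ± 3.90 TPM), SPRY2 (12.8 ± 0.48), ETV5 (10.7 ± 1.13), SPRED2 (8.04 ± 1.88), SPRED1 (5.10 ± 0.48), ETV4 (4.90 ± 0.82), DUSP5 (4.29 ± 1.13), DUSP4 (3.90 ± 0.93), DUSP6 (3.85 ± 1.05) and SPRY4 (2.91 ± 1.21), as mean and SD of 3 libraries. The ranges of DUSP1 and SPRY2, of SPRY2 and ETV5, and of SPRED2 and SPRED1 were separate, and the other neighbours overlapped. In ACM DUSP1 again led with 57.7 ± 6.94 TPM, and its range was the only one separate from that of its neighbour. ETV5 with 22.6 ± 7.20 TPM, SPRY2 with 20.5 ± 3.43 TPM and SPRED2 with 17.1 ± 2.04 TPM followed, and SPRED1 with 6.48 ± 0.72 TPM was last. The 3 ACM values of TPM were above the 3 UCM values for all 10 members.

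TPM depends on the effective length that RSEM assigned in each library, which is a mean over transcripts weighted by their abundance. For ETV5 this length was between 2685 and 3138 bases in ACM and between 1663 and 2429 bases in UCM, with no overlap. Its log2 FC was 1.11 with effective lengths as offsets (adjusted p = 0.038 from edgeR) and 0.98 on log2(TPM + 1) (adjusted p = 0.0448 from limma), against 1.59 from counts. For DUSP6 the lengths ran from 1843 to 2207 bases in ACM and from 1577 to 1869 in UCM, and its log2 FC was 1.88 with these offsets (adjusted p = 0.072 from edgeR). The lengths of ETV4 and SPRY2 also did not overlap and were shorter in ACM, at 1619 to 1711 against 1754 to 1834 bases and 2025 to 2039 against 2047 to 2062 bases. DUSP1 and DUSP5 had nearly constant lengths, within 7 bases across libraries. DUSP5 still lost its call with effective lengths as offsets (adjusted p = 0.0831 from edgeR). On log2(TPM + 1) both DUSP1 and DUSP5 lost theirs (adjusted p = 0.0532 and 0.088 from limma).

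**Figure D4:**
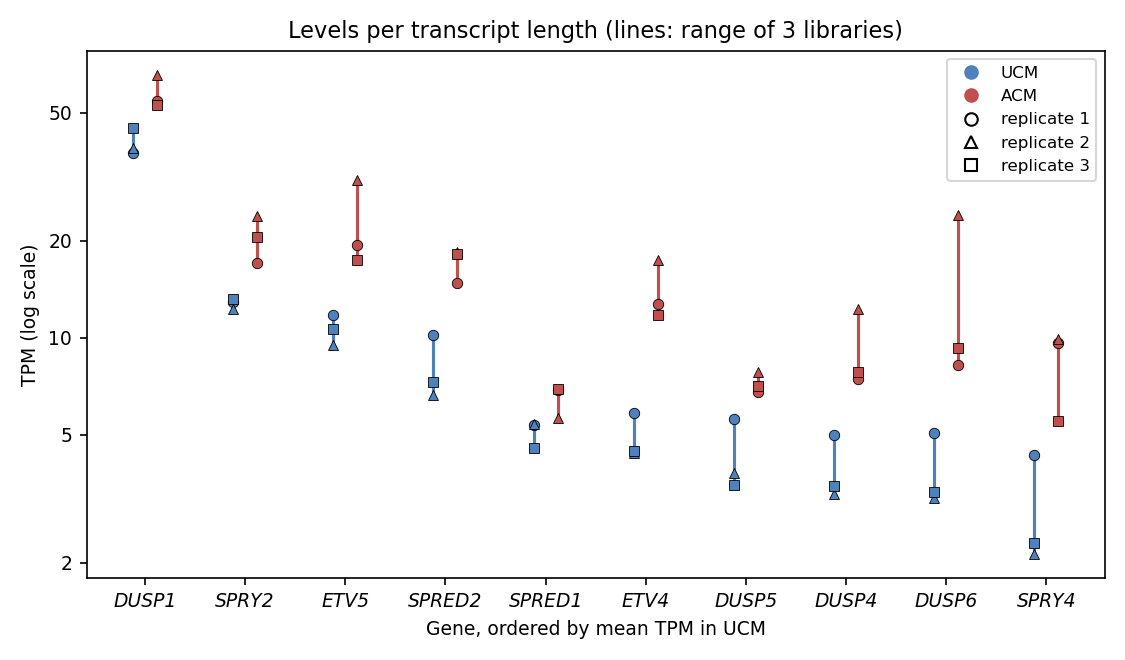
TPM of the 10 members on a log axis, ordered by the mean in UCM, with 1 symbol per library and lines from the lowest to the highest of 3 libraries. DUSP1 stands above the rest in both media (37.6 to 44.9 TPM in UCM and 53.0 to 65.7 TPM in ACM), and the widest range on this log axis is that of DUSP6 in ACM, from 8.22 to 24.1 TPM.

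Of 10 DUSP, Sprouty, SPRED and ETV relatives, 1 was higher and 0 were lower by adjusted p (3 and 0 by unadjusted p, and 2 and 0 with DESeq2), with a median log2 FC of 0.17. Among all genes tested, 3.35% were higher by adjusted p and 11.9% by unadjusted p. With DESeq2, 726 of 25484 genes were higher (2.85%), a larger set to which edgeR's filter was not applied. ETV1, the remaining PEA3 factor, was at 1.62, 3.49 and 1.85 CPM in ACM and at 0.711, 0.591 and 0.292 CPM in UCM (log2 FC = 2.09, SE 0.45, adjusted p = 0.0274 from edgeR). The call of ETV1 was lost without ACM replicate 2, ACM replicate 3, UCM replicate 2 or UCM replicate 3 (edgeR adjusted p = 0.123, 0.0531, 0.0972 and 0.0983). For SPRED3 the log2 FC was 1.16 (edgeR adjusted p = 0.0727) and for SPRY1 0.56 (edgeR adjusted p = 0.113). The other phosphatase genes, DUSP2, DUSP7, DUSP8, DUSP9, DUSP10 and DUSP16, had values between -0.40 and 0.17, none with an adjusted p-value below 0.373 from edgeR.

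The kinases and adaptors of the cascade showed no common direction. Of 21 such genes, 2 were higher and 0 were lower by adjusted p, beside 5.56% of all genes tested that were called in either direction. By unadjusted p 5 were higher and 2 lower, beside 11.9% and 11.5% of all genes tested. With DESeq2 3 were higher and 0 lower, beside 2.85% higher of its larger set of 25484 genes. The median log2 FC of the 21 genes was -0.01. KSR1, a scaffold that holds RAF, MEK and ERK together, was at 77.5, 95.4 and 71.2 CPM in ACM and at 56.3, 39.1 and 41.5 CPM in UCM (log2 FC = 0.83, SE 0.16, adjusted p = 0.0298 from edgeR). SHC1, an adaptor of receptor kinases, had a log2 FC of 0.27 (SE 0.07, adjusted p = 0.0428 from edgeR), and both calls were lost without ACM replicate 2 (edgeR adjusted p = 0.0737 for KSR1 and 0.145 for SHC1), UCM replicate 2 (0.0993 and 0.178) or UCM replicate 3 (0.105 and 0.175). KSR1 also lost it without ACM replicate 1 (0.0646) and SHC1 without ACM replicate 3 (0.0904). The genes of MEK, MAP2K1 and MAP2K2, had log2 FC values of 0.14 and -0.01, with adjusted p = 0.267 and 0.956 from edgeR.

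Of 15 other genes used as ERK readouts, 1 was higher and 1 was lower by adjusted p (5 and 1 by unadjusted p, and 5 and 1 with DESeq2), with a median log2 FC of 0.30. The shares of all genes tested were 3.35% higher and 2.21% lower by adjusted p, and 11.9% and 11.5% by unadjusted p. With DESeq2, 726 of its larger set of 25484 genes were higher (2.85%) and 420 lower. MYC, a growth regulator, was at 179, 183 and 196 CPM in ACM and at 150, 142 and 160 CPM in UCM (log2 FC = 0.30, SE 0.07, adjusted p = 0.0371 from edgeR). EPHA4, an ephrin receptor gene, was the lower one, at 19.2, 14.3 and 21.9 CPM in ACM and at 27.2, 31.7 and 33.4 CPM in UCM (log2 FC = -0.73, SE 0.15, adjusted p = 0.0264 from edgeR). Neither call was kept without ACM replicate 2 (edgeR adjusted p = 0.104 for MYC and 0.056 for EPHA4), UCM replicate 2 (0.188 and 0.112) or UCM replicate 3 (0.0778 and 0.114). MYC also lost it without ACM replicate 3 (0.104) and EPHA4 without ACM replicate 1 (0.0646). PHLDA1, IER3 and FOSL1, with ACM above UCM in every library, had log2 FC values of 1.26, 1.27 and 0.80 and adjusted p-values of 0.0652, 0.0783 and 0.102 from edgeR. For CCND1, which encodes cyclin D1, the value was 0.48 (edgeR adjusted p = 0.0577).

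EGR1, FOS, FOSB, JUNB and IER2, immediate early genes that ERK induces within minutes of a stimulus, did not pass over all 6 libraries. EGR1 was at 28.0, 84.4 and 99.9 CPM in ACM and at 28.3, 106.5 and 115 CPM in UCM, and FOS at 1.57, 6.08 and 5.27 CPM in ACM and at 0.758, 9.73 and 8.75 CPM in UCM. Both genes overlapped between the media and were lowest in replicate 1 of each. Their log2 FC values were -0.24 (SE 0.75) and -0.57 (SE 0.93), with adjusted p = 0.892 and 0.773 from edgeR over all 6 libraries. In replicates 2 and 3 alone both genes were lower in each ACM library than in each UCM library. In replicate 1 FOS was instead higher in ACM, at 1.57 against 0.758 CPM. The fit without either replicate 1 was added after seeing the data. In it FOS was lower in ACM (log2 FC = -0.69, SE 0.17, edgeR adjusted p = 0.032), beside EPHA4 (-0.83, adjusted p = 0.0432). Thus 2 of the 15 genes were lower, beside 726 of 14393 genes tested in that fit, and EGR1 stood at -0.25 (SE 0.09, adjusted p = 0.101). With the replicate block instead, FOS changed by -0.38 (SE 0.29) and EGR1 by -0.20 (SE 0.08). Neither gene passed with the block (edgeR adjusted p = 0.446 and 0.117). Over all 6 libraries and without the block, FOSB, JUNB and IER2 had values of 0.40, 0.16 and 0.12, with adjusted p-values of 0.499, 0.358 and 0.417 from edgeR.

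**Figure D5:**
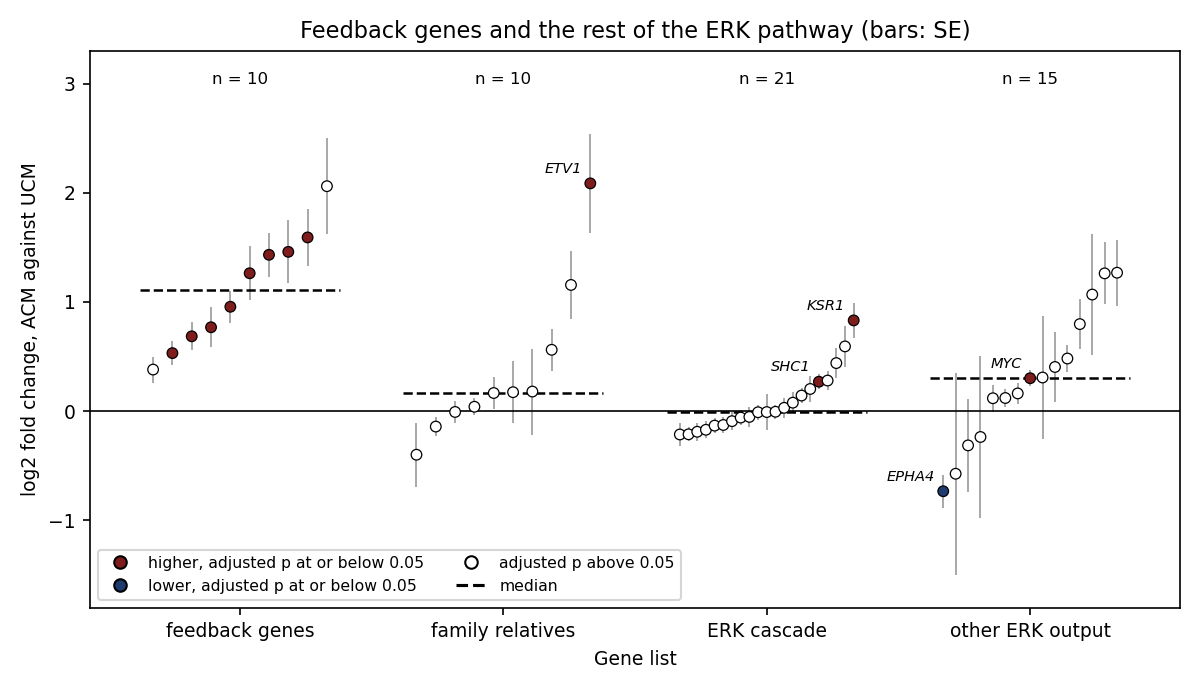
Log2 fold change in ACM against UCM for the 10 members and 3 further gene lists, with SE bars, filled circles for genes with adjusted p ≤ 0.05 and dashed lines for the medians. The members lie above 0 with a median of 1.11, whereas the cascade genes lie around 0 (median -0.01) with KSR1 as their highest, and the other output genes spread from -0.73 (EPHA4) to 1.27 (IER3).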

How the data were processed

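Expression was measured by RNA-seq in 3 ACM and 3 UCM cultures of BT-549 cells (polyA RNA, paired reads of 150 bases). The submitters name Trim Galore for trimming, STAR for alignment and RSEM for quantification on GRCh38, and their versions and the annotation are not given in the sources used here. The authors deposited RSEM expected counts, not scaled for library size, and TPM, which are scaled by the effective lengths deposited beside them in bases. The deposited table of the authors' own DESeq2 fold changes and p-values was not used. Of 63140 identifiers, 61547 matched GENCODE 44 with version, and symbols and positions came from it.

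After rounding, expected counts were tested by edgeR 4.0.16 under R 4.3.3 (filterByExpr with a minimum count of 10, TMM, robust quasi-likelihood fit with condition as the only term, Benjamini-Hochberg adjustment over 14451 genes). The SE of a log2 FC is its size over the root of the F statistic. CPM were computed on TMM-scaled totals of tested genes. The biological coefficient of variation was 0.115. The fit was also run on counts simulated from its own dispersions, with libraries independent of each other. Such counts hold no shift shared by many genes of a library, like that of ACM replicate 2. Totals of 17135288 to 21053257 counts limit precision mainly for genes near 1 CPM. Alternatives were DESeq2 1.42.0, RLE size factors, no filter and a filter of 10 counts in every library, limma 3.58.1 on log2 TPM with 1 or 0.1 added, effective lengths as offsets, a replicate block, omission of single libraries, and, added after seeing the data, neither replicate 1. Motifs were searched in RefSeq promoter windows.

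The members, lists and tests were chosen with earlier results of these data known. All members are named, and in each list up to 4 genes of largest change at the adjusted p-value, with further genes named after their values were seen, as were the 6 ratios. Genes like DUSP6 are the 5 of at least 10 CPM with the highest correlation. No 2 libraries held the same values. The value of 1 gene of the cascade list is not reported here.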

Additional observations from a re-analysis of the deposited data

How the results depend on the processing

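The direction of all 10 members and their count of 0 lower genes held in 15 of 15 other settings, of which the fit without either replicate 1 was chosen after seeing the data. Over omissions of single libraries, the members higher at the adjusted p-value numbered 2 to 9, those past the study thresholds 7 to 9, and their median log2 FC was 0.91 to 1.28. Ranges over the same omissions were 0 to 3 higher cascade genes, 0 to 1 higher relatives, 0 to 2 higher and 0 to 1 lower output genes, 125 to 738 higher and 62 to 572 lower genes of all tested, and 0 to 2 places changed in the TPM order within UCM and 2 within ACM. No filter gave 1045 higher and 679 lower genes, 3 higher relatives and 2 higher output genes. A filter of 10 counts in every library gave 0 higher relatives, since ETV1 was no longer tested, and 2 higher output genes. DESeq2 gave 2 higher relatives and 5 higher output genes. Limma-trend on log2(TPM + 1) gave 230 higher and 132 lower genes, on log2(TPM + 0.1) 234 and 138, and effective lengths as offsets 272 and 134. Each of these 3 settings gave 0 higher cascade genes and 0 lower output genes, and the last gave 2 higher output genes. Without either replicate 1, there were 1017 higher and 726 lower genes, 5 higher cascade genes, 2 higher relatives, 2 higher and 2 lower output genes, and a member median of 1.42. The cause of these shifts was not tested.

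The labels do not say that a replicate number marks a shared day or batch. By deviations from the group mean, same-numbered libraries correlated at 0.351, 0.054 and 0.232, which was taken as no pairing since replicate 2 lies under 0.1. As a hint from the data, each ACM library correlated best with its own number, as did UCM replicates 1 and 3, whereas UCM replicate 2 correlated best with ACM replicate 3 (0.224). With the replicate block 909 genes were higher and 703 lower, 7 of 10 members were higher (DUSP4 and ETV5 lost their calls, with adjusted p = 0.078 and 0.0667 from edgeR, and SPRED1 gained one) and 1 cascade gene was lower. Depth limits relatives at low counts, such as ETV1 and SPRY3.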
